A study of Mus musculus with 6 samples.

Results

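The cytosolic ribosomal protein genes were the 87 of 12153 genes in the expression table whose symbols begin with Rpl or Rps and a digit, or are Rplp0, Rplp1, Rplp2 or Rpsa, without the Rps6k kinases and without pseudogene rows. They comprised 50 genes named for the large subunit and 37 named for the small subunit. Of these, 77 encode canonical proteins of the mouse ribosome, 46 of the large and 31 of the small subunit. The other 10 were paralogs, retrogene copies or binding partners that share the naming pattern: Rpl7l1, Rpl22l1, Rpl36al, Rpl37rt, Rps3a2, Rps4l, Rps12l1, Rps19bp1, Rps27l and Rps27rt. Fau and Rack1 are canonical components that fell outside the names, and both were measured.

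B16.F10 is a mouse melanoma line, and regulatory T cells (Tregs) were sorted from B16.F10 tumors on day 15 after inoculation and profiled by bulk RNA-Seq to characterize how Tregs differ when they cannot respond to glucocorticoids. The 3 control libraries came from mice of the genotype Nr3c1-flox, in which the gene for the glucocorticoid receptor carries loxP sites and for which the labels name no Cre. The 3 Nr3c1-Foxp3Cre libraries came from Nr3c1-flox_Foxp3-YFP/Cre mice, in which Cre is produced from Foxp3, the gene of the Treg transcription factor, so the deletion depends on Foxp3 expression. As far as the labels say, Cre and YFP were present in this group alone, and cannot be told apart from loss of the receptor. The sample labels describe CD4+CD25+ Tregs sorted after Liberase TL and DNase I digestion, whereas the study's methods describe Foxp3-YFP+ CD4+ cells. No source says whether a library held cells of 1 mouse or several, so all p-values measure the spread between these libraries only.

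Ribosomal proteins are made in near-equal numbers and assembled with ribosomal RNA in the nucleolus, and surplus copies are degraded. Most of their mRNAs begin with a 5′ terminal oligopyrimidine (TOP) tract, an uninterrupted run of C and T that starts with C, through which the mTOR kinase and the RNA-binding protein Larp1 control their translation. T cells raise ribosome production strongly upon activation, and glucocorticoids are known to restrain growth of conventional T cells.

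That shared feature is shown here because it lies outside the naming rule. RefSeq start windows (GRCm38.p6) were matched by symbol for 57 of the 77 canonical genes. For 6 of them, 30 bases on the gene's strand around the annotated start are printed 5′ to 3′, with the longest C-led pyrimidine run in capitals.
Rps6: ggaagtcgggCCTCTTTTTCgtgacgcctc
Rplp2: gcgtcagcgtCTTCCTTTCgccgccggacg
Rps26: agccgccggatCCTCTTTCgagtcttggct
Rps9: aaccgccttgtCTCTCTTTgtctcgggcct
Rps27: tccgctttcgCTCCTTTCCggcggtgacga
Rpl11: cggaagtCTCCCTCTCTCTTCCTgttctcc
The windows lie at chr4:86857349-86857378 on the minus strand for Rps6, chr7:141447637-141447666 on the plus strand for Rplp2, chr10:128626484-128626513 on the minus strand for Rps26, chr7:3704025-3704054 on the plus strand for Rps9, chr3:90213631-90213660 on the minus strand for Rps27 and chr4:136053357-136053386 on the minus strand for Rpl11. With the annotated start base as position 0, the run began at -1 in Rps6, -4 in Rplp2, 4 in Rps26, -5 in Rps9, -2 in Rps27 and 14 in Rpl11. These 6 were picked after the positions were seen, and the run lay farther from the start in most of the 7 other genes whose windows were read: at 2 in Rpl13a, -12 in Rpl7a, -20 in Rpl5, 26 in Rpl4, 40 in Rpl41, 41 in Rpl10 and 41 in Rps19. The Rpl11 window lies wholly after the annotated start, in the transcribed part, and the others span the start itself.

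A C-led run of 7 or more pyrimidines began within 25 bases before to 50 bases after the start of 45 of the 57 matched canonical genes, compared with 3120 of 9270 other matched genes of the table (33.7%). Within the same 75 bases, CTCTTT was found in 19 of the 57 (33.3%) and in 2.71% of the other genes, CTTTCC in 17 (29.8%) and 3.91%, and CTTCCT in 14 (24.6%) and 7.09%. These 3 hexamers were searched on the gene's strand and overlap one another and the runs. In the whole window of 250 bases before to 50 after the start, searched on both strands, CCGGAA, the core recognized by ETS factors, was found in 32 genes (56.1%) and in 32.9% of the others. Its reverse complement shares letters with the second and the third of those hexamers. GGGCGG, the Sp1 box, was found in 35 (61.4%) and 69.0%, the E-box CACGTG in 6 (10.5%) and 11.8%, TATAAA in 6 (10.5%) and 8.65%, and AAGATGGC, a YY1 sequence, in 5 (8.77%) and 5.43%. The palindromic glucocorticoid response element, searched in its full consensus form, was in 0 of the 57 windows and in 1 of the other 9270. These are letter matches in a short window and not measured binding.

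The values analysed were quantile-normalized log2 CPM (counts scaled to a fixed library total), which give every library nearly the same total and hold no raw depth. Nr3c1 was 7.15, 7.59 and 6.88 in the controls and 6.14, 5.45 and 5.90 in Nr3c1-Foxp3Cre, so the groups did not overlap and the labels matched the targeted gene. Its log2 difference was -1.38 (SE 0.21; limma, Benjamini-Hochberg adjusted p = 0.12). Of all genes, 7 had an adjusted p under 0.05. The Treg and CD4 T cell markers were present (0 of 8 with unadjusted p under 0.05), with summed levels of 3852 to 5313 CPM in the controls and 3981 to 4600 in Nr3c1-Foxp3Cre, although Foxp3 itself had a mean of only 3.93. Melanoma markers were abundant in every library, with 9 of 9 measured genes summing to 4584 to 12280 CPM in the controls and 5093 to 12540 in Nr3c1-Foxp3Cre. Fibroblast markers summed to 187 to 460 CPM in the controls and 76.7 to 167 in Nr3c1-Foxp3Cre, with 3 of 5 genes lower at an unadjusted p under 0.05 and 0 after adjustment. Macrophage markers (8 of 8 measured) summed to 369 to 555 and 269 to 540 CPM. All 8 had a lower mean in Nr3c1-Foxp3Cre, with a median log2 fold change of -0.40 and 0 at an unadjusted p under 0.05. Of the B cell list only Cd79b and of the CD8 T cell and NK cell list only Cd8b1 were measured, at 14.1 to 23.4 and 15.1 to 21.3 CPM and at 7.62 to 15.6 and 10.2 to 12.8 CPM in the 2 groups.

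In these libraries, in which melanoma markers were abundant, the ribosomal protein mRNAs differed little between the genotypes. Of the 50 large subunit genes, 16 had a higher and 34 a lower mean in Nr3c1-Foxp3Cre, with a median log2 fold change of -0.020. Of the 37 small subunit genes, 11 had a higher and 26 a lower mean, with a median of -0.026, beside a median of -0.00145 over all 12153 genes. No member passed the test: 0 of 87 had an adjusted p under 0.05 (limma with Benjamini-Hochberg adjustment over all genes; 0.0576% of all genes did), and 0 of 87 had an unadjusted p under 0.05 (3.26% of all genes did). The smallest unadjusted p among them was 0.151. Under the other settings tried the adjusted count stayed at 0, and the unadjusted count was at most 1 in each subunit.

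The lean towards lower values depended on which libraries were included and how they were weighted. Without control replicate 1, 28 of 50 large and 21 of 37 small subunit genes were higher in Nr3c1-Foxp3Cre, and the medians were 0.0065 and 0.0050. Without control replicate 2, only 7 of 50 and 5 of 37 were higher, with medians of -0.066 and -0.066. Without control replicate 3 the large subunit count was 26 of 50 higher with a median of 0.0050, and the small subunit count 16 of 37. Without Nr3c1-Foxp3Cre replicate 2 the counts were 24 of 50 and 18 of 37. The lean stayed without Nr3c1-Foxp3Cre replicate 1 (16 of 50 and 10 of 37 higher) and without replicate 3 (15 of 50 and 10 of 37). It was stronger with sample quality weights, where 11 of 50 and 5 of 37 were higher, with medians of -0.046 and -0.041.

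The measurement was precise enough to bound these differences in the RNA of the libraries as sequenced. Melanoma markers summed to 4584 to 12540 CPM per library, and Treg and CD4 T cell markers to 3852 to 5313 CPM. The bounds therefore do not apply to Tregs alone, and how far other cells diluted any difference in Tregs was not tested. For all 77 canonical genes the 95% interval of the log2 fold change lay within -0.5 to 0.5, compared with 71.2% of the 7336 other genes in the same range of levels. For 17 of them it lay within -0.25 to 0.25. The fold change itself was smaller than 0.1 in either direction in 74 of 77, compared with 59.2% of the other genes in that range. The median spread between libraries of a group (pooled SD) was 0.096 for the canonical genes and 0.165 for the others. The canonical genes stood higher within that range, with a median log2 CPM of 7.35 against 5.93 for the others. Levels were thus not matched, and the part of level in these contrasts was not tested. These intervals describe sizes that the data still allow, and do not show that the genotypes had equal levels.

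**Figure D1:**
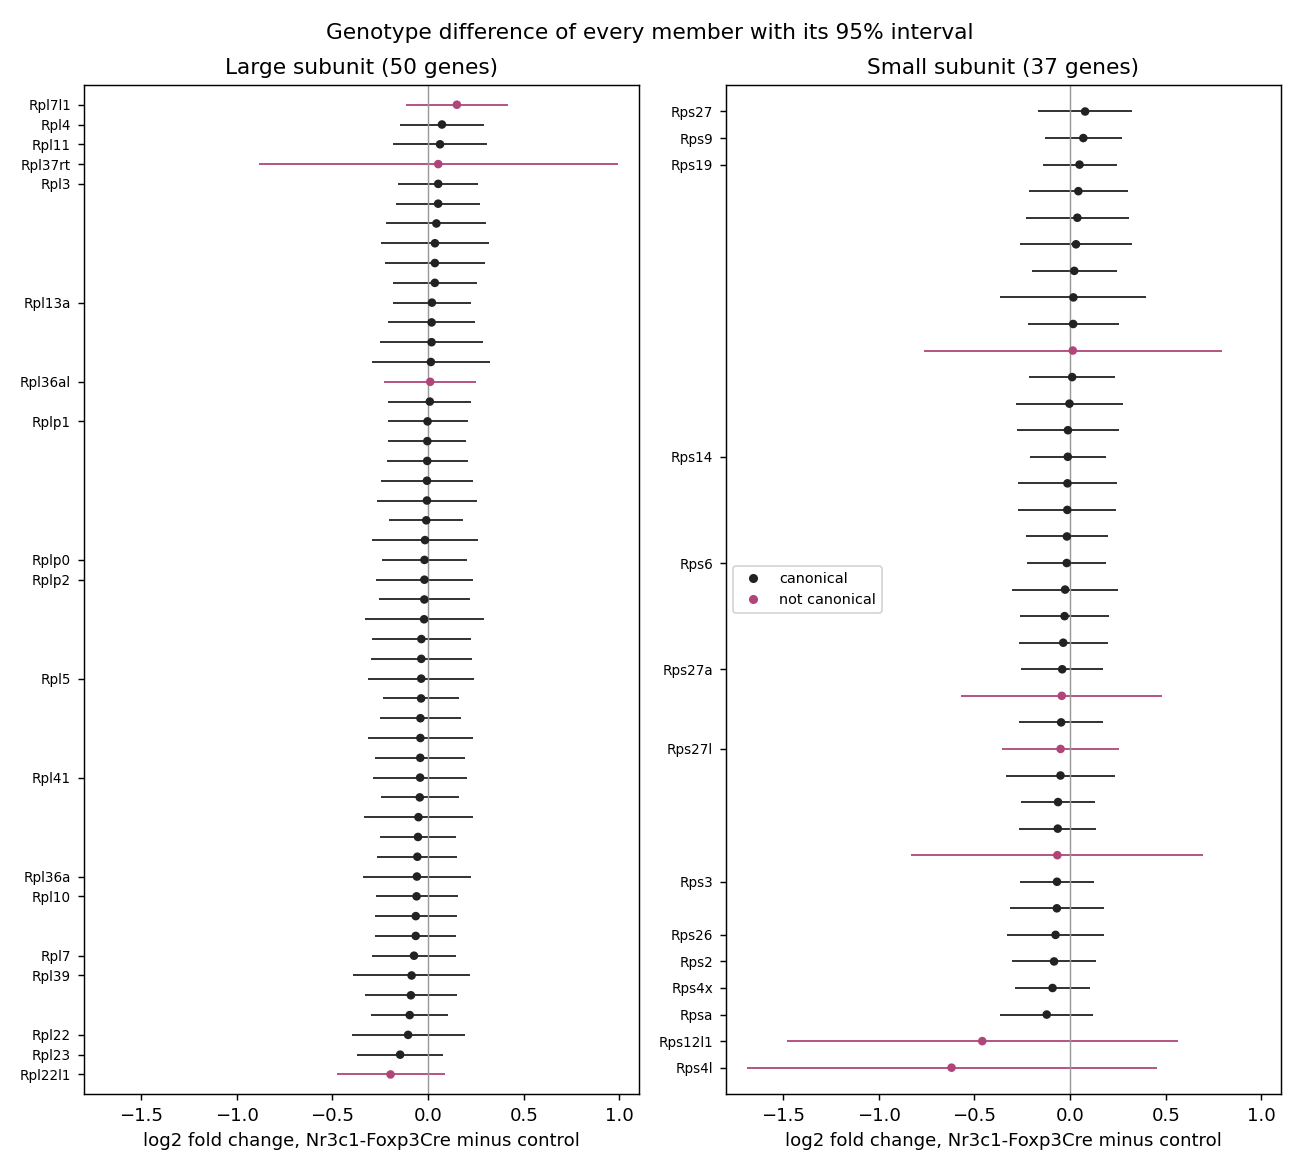
Log2 fold change of every member, Nr3c1-Foxp3Cre minus control (x axis), as a point with its 95% interval from limma, ordered by value within the large (left) and small (right) subunit, with names given for the genes picked by the naming rule of the methods. Every interval crosses 0, and those of the low-level genes, Rpl37rt, Rps12l1 and Rps4l among them, are the wide ones.

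Among the large subunit proteins, Rplp0, Rplp1 and Rplp2 form the stalk that recruits elongation factors. Rplp0 had the highest log2 CPM of all members, without division by length, at 10.13, 9.94 and 10.05 in the controls and 10.04, 9.998 and 10.03 in Nr3c1-Foxp3Cre. The groups overlapped, with a log2 fold change of -0.019 (95% interval -0.24 to 0.20). Rplp1 differed by -0.0030 (-0.21 to 0.21) and Rplp2 by -0.019 (-0.27 to 0.24), so the stalk genes were all within their spread.

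Rpl5 and Rpl11 travel with 5S ribosomal RNA and bind the p53 regulator Mdm2. Rpl5 was 6.66, 6.30 and 6.34 in the controls and 6.31, 6.44 and 6.44 in Nr3c1-Foxp3Cre. Only control replicate 1 stood above the rest, and the fold change was -0.036 (-0.31 to 0.24). Rpl11 was 6.68, 6.74 and 6.94 against 6.91, 6.75 and 6.89, a difference of 0.062 (-0.18 to 0.31). Neither gene's groups were separated.

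Rpl10, which completes the large subunit before it joins the small one, was 8.17, 8.12 and 8.10 in the controls and 8.20, 7.96 and 8.05 in Nr3c1-Foxp3Cre, with overlapping groups and a difference of -0.060 (-0.27 to 0.15). Rpl3, near the catalytic centre, differed by 0.053 (-0.16 to 0.26), Rpl13a by 0.020 (-0.18 to 0.22) and Rpl41, the shortest of the ribosomal proteins, by -0.042 (-0.29 to 0.21). Rpl4, which lines the exit tunnel, was the canonical large subunit gene with the highest fold change. Its values were 9.96, 9.76 and 9.89 in the controls and 9.94, 9.98 and 9.92 in Nr3c1-Foxp3Cre, a difference of 0.072 (-0.15 to 0.29; unadjusted p = 0.481) inside the control range apart from 1 library.

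Rpl23 had the lowest fold change of the canonical genes. It was 7.21, 6.97 and 7.06 in the controls and 6.97, 6.92 and 6.90 in Nr3c1-Foxp3Cre. The groups touched without overlapping, at a log2 difference of -0.15 (-0.37 to 0.077; unadjusted p = 0.173, limma adjusted p = 1). Rpl22, whose loss blocks development of alpha-beta T cells in mice, was 5.38, 5.21 and 5.29 against 5.23, 5.05 and 5.30, a difference of -0.10 (-0.40 to 0.19) with overlapping groups. Rpl22l1, the paralog that can replace it in the ribosome, was 5.29, 5.19 and 5.37 against 5.04, 5.09 and 5.13. All 3 Nr3c1-Foxp3Cre values lay below all 3 controls, with a difference of -0.20 (-0.48 to 0.086; unadjusted p = 0.151, limma adjusted p = 1).

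Among the small subunit proteins, Rps6 is the substrate of the S6 kinases downstream of mTOR. It was 9.48, 9.33 and 9.40 in the controls and 9.36, 9.40 and 9.40 in Nr3c1-Foxp3Cre, the highest log2 CPM in its subunit without division by length, and differed by -0.017 (-0.22 to 0.19). Rps3 and Rps2 line the channel through which mRNA enters. Rps3 differed by -0.068 (-0.26 to 0.13) and Rps2 by -0.083 (-0.30 to 0.14). Rpsa, also known as the laminin receptor precursor, was 8.82, 8.93 and 8.85 in the controls and 8.90, 8.57 and 8.76 in Nr3c1-Foxp3Cre. It had the lowest fold change of the canonical small subunit genes, -0.12 (-0.36 to 0.12; unadjusted p = 0.287), and replicate 2 of Nr3c1-Foxp3Cre lay farthest below the controls.

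Rps14 and Rps19 are mutated or lost in inherited and acquired failures of red cell production. Rps19 was 8.75, 8.73 and 8.77 against 8.84, 8.75 and 8.81, a difference of 0.050 (-0.14 to 0.24), and Rps14 differed by -0.012 (-0.21 to 0.19). Rps26, at the mRNA exit, differed by -0.075 (-0.33 to 0.18), and Rps27a, made as a fusion with ubiquitin, by -0.041 (-0.26 to 0.17). The highest fold changes of the small subunit were those of Rps27, 0.079 (-0.17 to 0.32), and Rps9, 0.070 (-0.13 to 0.27), with overlapping groups in both.

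The 3 Nr3c1-Foxp3Cre values lay entirely below the 3 control values for 5 of the 87 members and entirely above them for 0, while 3.73% and 3.69% of all genes, 7.41% in either direction, were so ordered. Besides Rpl22l1 and Rpl23 these included Rpl7a and Rps4x, the former named here after its values were seen. Rps4x, the X-linked form of a protein of the small subunit, was 8.35, 8.30 and 8.24 in the controls and 8.23, 8.15 and 8.23 in Nr3c1-Foxp3Cre, a difference of -0.091 (-0.29 to 0.11). Rpl7a differed by -0.096 (-0.30 to 0.11). All 5 differences were under 0.2 on the log2 scale. Among the 77 canonical genes, 8 had the same value in 2 or more libraries, as quantile normalization can give.

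The canonical genes of both subunits moved together between libraries, and by more than the difference between genotypes. Measured against each gene's own mean over the 6 libraries, the median deviation of the 46 large subunit genes was 0.065, -0.078 and 0.039 in control replicates 1, 2 and 3 and 0.028, -0.044 and -0.0031 in Nr3c1-Foxp3Cre replicates 1, 2 and 3. For the 31 small subunit genes the same medians were 0.072, -0.074 and 0.037 in the controls and 0.035, -0.045 and 0.016 in Nr3c1-Foxp3Cre. Both subunits thus ordered the 6 libraries alike, with control replicate 1 at the top and replicate 2 of either group at the bottom. Over all genes the library medians lay between -0.0069 and 0.026.

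Control replicate 1 held the highest of the 6 values for 40 of the 77 canonical genes (19.8% of all genes), and control replicate 2 the lowest for 40 of 77 (18.2% of all genes). Nr3c1-Foxp3Cre replicate 2 held the lowest for another 28 (19.6% of all genes). The 39 genes at or under the median length of 729 nt and the 38 longer ones had median deviations of 0.048 and 0.075 in control replicate 1, -0.081 and -0.070 in replicate 2 and 0.046 and 0.023 in replicate 3. In Nr3c1-Foxp3Cre replicates 1 and 2 they were 0.024 and 0.031, and -0.053 and -0.039, and in replicate 3 they had opposite signs, 0.023 and -0.013. The part of length in the shifts was not tested. The melanoma markers summed to 12280, 4584 and 9059 CPM in control replicates 1, 2 and 3 and to 8511, 12540 and 5093 CPM in Nr3c1-Foxp3Cre replicates 1, 2 and 3, and their part in the shifts was not tested. In bulk libraries a change in the cells sampled and a change in RNA per cell cannot be told apart.

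**Figure D2:**
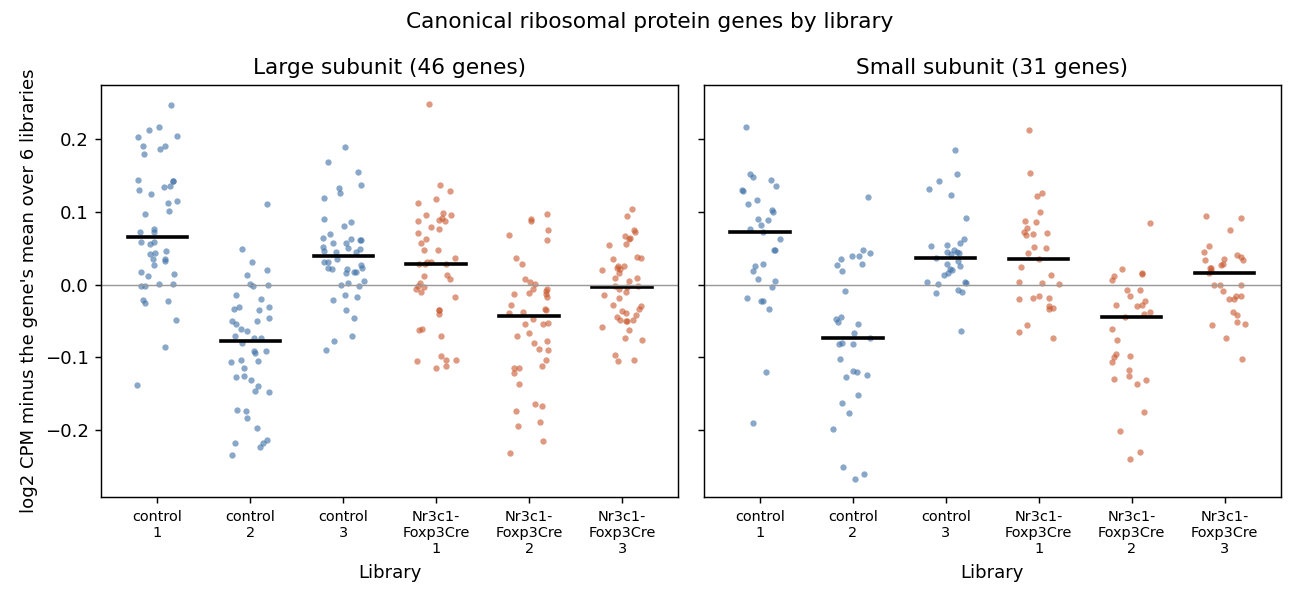
Log2 CPM of each canonical gene minus that gene's mean over the 6 libraries (y axis) by library (x axis), for the large (left) and small (right) subunit, with black bars at the library medians. Control replicate 1 sits highest and control replicate 2 lowest in both subunits, and the Nr3c1-Foxp3Cre libraries lie between them.

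Summed on the linear scale, the 87 members took 1.98%, 1.80% and 1.92% of the CPM in control replicates 1, 2 and 3 and 1.93%, 1.84% and 1.88% in Nr3c1-Foxp3Cre. The large subunit genes took 1.13% ± 0.058 (SD, n = 3) in the controls and 1.12% ± 0.025 in Nr3c1-Foxp3Cre, and the small subunit genes 0.773% ± 0.033 and 0.759% ± 0.025. The ratio of large to small subunit CPM was 1.46 ± 0.014 in the controls and 1.48 ± 0.018 in Nr3c1-Foxp3Cre. It ranged from 1.446 to 1.473 and from 1.470 to 1.503, which overlapped. Between 16 and 18 members stood among the 500 genes with the highest values of each library.

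Levels between genes were compared per kilobase of the principal GENCODE transcript. The 77 canonical genes had a median of 234 CPM per kb, with 80.9 at the 10th and 617 at the 90th percentile, a ratio of 7.63. The medians were 209 for the large and 253 for the small subunit. This is a spread between genes, which is a different measure from the difference of a gene between genotypes. The parts of library preparation, annotated length and reads shared with copies in this spread were not tested. At the top stood Rpl13, at 987 CPM per kb, Rps14 at 779, Rplp0 at 771 and Rps6 at 767. At the bottom of the canonical genes stood Rps20 at 21.9, Rpl27a at 41.5, Rpl5 at 41.8 and Rps21 at 46.2. The values of Rps20 and Rpl5 rest on annotated transcripts of 3706 and 2045 nt, the longest of the set, and the part of length in their low rank was not tested. Rpl13, Rpl27a, Rps20 and Rps21 were picked after their levels were seen. On the log2 CPM scale, without division by length, the level rose with transcript length (Spearman's rho = 0.53 across 77 genes of the same libraries, a description). Per kilobase the same rho was 0.12.

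**Figure D3:**
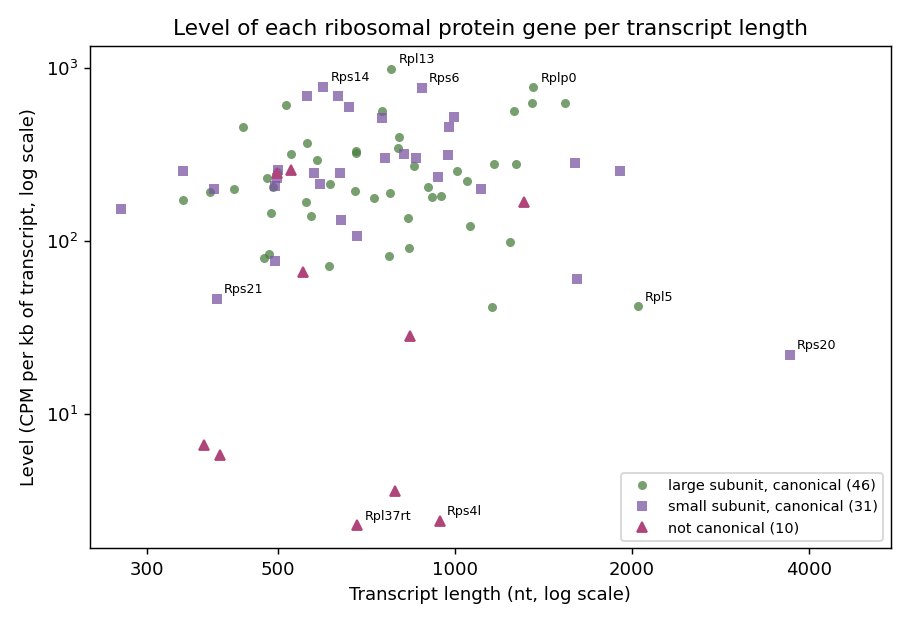
Level of each member in CPM per kb of transcript (y axis, log scale) against transcript length (x axis, log scale), averaged on the log2 scale over the 6 libraries. Most canonical genes lie between 80.9 and 617 CPM per kb, and 5 of the 10 other members lie under 10.

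Of the 10 members that are not canonical, 5 were within the range of levels of the canonical genes. Rpl36al was 3.08 times as high per kb as its partner Rpl36a, Rps27l 0.971 times as high as Rps27, Rpl22l1 0.825 times as high as Rpl22 and Rpl7l1 0.604 times as high as Rpl7. Rps4l was 0.0077 times as high as Rps4x and near the floor of the table. Rps19bp1, which binds Rps19 and is no ribosomal protein, had a mean of 4.56 and 28.1 CPM per kb, near the low end of that range. The retrogene or copy rows Rpl37rt, Rps12l1, Rps27rt and Rps3a2 had means of 0.62 to 1.496. Rpl3l, Rpl10l and Rpl39l, the other paralogs sought, are not analysed here.

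Within a library, Rpl7l1 minus Rpl7 was -0.39, -0.89 and -0.72 on the log2 scale in the controls and -0.63, -0.22 and -0.48 in Nr3c1-Foxp3Cre. The groups overlapped, with a mean difference of 0.22 between genotypes (two-sided exact permutation test, p = 0.3). Rpl7l1 itself, a nucleolar homolog of Rpl7, had the highest fold change of the large subunit names, 0.15 (-0.12 to 0.42; unadjusted p = 0.235), and its unadjusted p was under 0.05 without control replicate 1. Rpl22l1 minus Rpl22 was -0.094, -0.023 and 0.079 in the controls and -0.19, 0.042 and -0.16 in Nr3c1-Foxp3Cre, a difference of -0.092 (exact permutation p = 0.3). For Rpl36al, Rps27l and Rps4l against their partners the exact permutation p was 0.7, 0.7 and 0.5. Over the 5 pairs the adjusted p was 0.7 for each, and with 3 against 3 libraries the smallest p this test can give is 0.1.

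**Figure D4:**
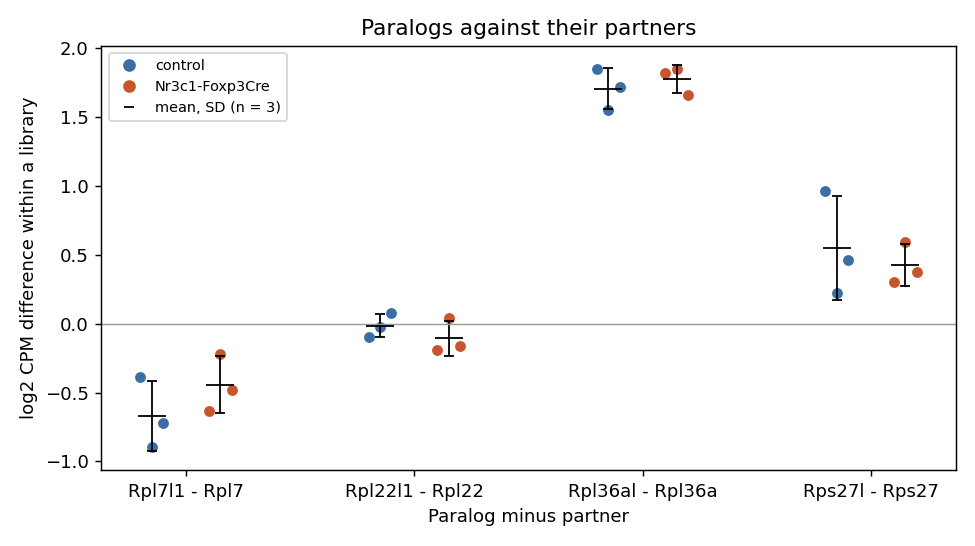
Log2 CPM of a paralog minus that of its partner within each library (y axis) for 4 pairs (x axis), with points for the libraries and black bars for the mean and SD (n = 3) of each genotype. Control and Nr3c1-Foxp3Cre points overlap in each pair, and Rpl36al lies above Rpl36a in all 6 libraries.

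Rps4l had the lowest fold change of all members, -0.62 (-1.69 to 0.45), from values of 0.96, 1.41 and 2.11 in the controls and 1.12, 0.069 and 1.43 in Nr3c1-Foxp3Cre. Rps12l1 differed by -0.46 (-1.48 to 0.56) and Rpl37rt by 0.053 (-0.88 to 0.99). Their libraries overlapped and the intervals span more than 1 log2 unit, so differences of that size were not detectable at these levels. Reads of such copies can be shared with the parent gene, and how they were divided rests on the estimates made by RSEM.

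The same holds for the pseudogene rows, of which 20 were in the table beside the members. None had an unadjusted p under 0.05 (limma; 0 also after adjustment), and 13 of 20 were lower in Nr3c1-Foxp3Cre. Of the summed CPM of a row and its parent gene, Rpl31-ps8 took 25.6%, Rpl27-ps3 15.7%, Rps23-ps1 12.3% and Rpl15-ps3 12.1%. The median was 2.56% over the 20. Whether part of these shares came from reads of Rpl31, Rpl27, Rps23 and Rpl15 was not tested, so the levels of those parent genes are uncertain. Rpl27-ps3 varied between 2.31 in Nr3c1-Foxp3Cre replicate 1 and 5.27 in control replicate 1. These 4 were chosen for the size of their share.

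The components that the names leave out behaved like the members. Rack1, the scaffold on the small subunit head, was 9.28, 8.99 and 8.97 in the controls and 8.97, 9.08 and 8.97 in Nr3c1-Foxp3Cre, a difference of -0.071 (-0.32 to 0.17). Fau differed by -0.0063 (-0.23 to 0.22), and neither had an unadjusted p under 0.05.

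The genes that make ribosomes, or share their mRNA structure, were measured from lists of names, and the genes named here are the extremes of each list among genes with a mean of at least 3. Of 18 other TOP mRNAs, which encode elongation and initiation factors and a few other proteins, 5 were higher and 13 lower, with a median of -0.043. The extremes were Eif3f, an initiation factor subunit, at -0.18 (-0.46 to 0.10), and Eif4b at 0.047 (-0.17 to 0.26). Of 5 snoRNA host RNAs, 3 were higher and 2 lower. Gas5, a host transcript whose RNA can bind the glucocorticoid receptor, was 5.62, 5.87 and 5.41 in the controls and 5.72, 5.99 and 5.77 in Nr3c1-Foxp3Cre, a difference of 0.19 (-0.14 to 0.53) with overlapping groups. Snhg5 differed by -0.30 (-0.78 to 0.17).

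Of 34 ribosome biogenesis factors, 25 were higher and 9 lower in Nr3c1-Foxp3Cre, with a median of 0.054, and 0 had an unadjusted p under 0.05 (limma; 0 also after adjustment). Control replicate 2 held the lowest value for 24 of the 34, with a median deviation of -0.21. Pes1, which processes the large subunit RNA precursor, was 6.97, 6.55 and 7.22 in the controls and 7.26, 7.24 and 7.16 in Nr3c1-Foxp3Cre. Its difference of 0.30 (-0.046 to 0.65; unadjusted p = 0.0814) came with a low control replicate 2. Gar1, of the pseudouridylation complex, differed by -0.18 (-0.53 to 0.17). Of 11 RNA polymerase I genes, 8 were higher and 3 lower, with a median of 0.028 and extremes in Taf1c at 0.40 (-0.064 to 0.86) and Polr1e at -0.067 (-0.43 to 0.30). Of 6 chaperones and importers, 3 were higher and 3 lower, from Tsr2, which escorts Rps26, at -0.11 (-0.50 to 0.27) to Heatr3, which escorts Rpl5, at 0.071 (-0.23 to 0.38).

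Of 14 regulators, 8 were higher and 6 lower, and 1 had an unadjusted p under 0.05. Tsc1, an inhibitor of mTOR signaling, was 3.32, 3.76 and 3.24 in the controls and 3.85, 4.16 and 4.05 in Nr3c1-Foxp3Cre. The groups did not overlap, and the difference was 0.58 (0.10 to 1.06; unadjusted p = 0.0227, limma adjusted p = 1), which did not pass the adjusted test. Max, the partner of Myc, was 5.73, 5.03 and 5.98 in the controls and 5.71, 4.09 and 4.32 in Nr3c1-Foxp3Cre, a difference of -0.87 (-1.77 to 0.024; unadjusted p = 0.0553) with overlapping groups.

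The list of mitochondrial ribosomal protein names, which belong to a separate ribosome, took in 79 rows, among them the pseudogene row Mrpl23-ps1. They had a median fold change of -0.039, with 21 higher and 58 lower and 0 at an unadjusted p under 0.05 (limma; 0 also after adjustment). Their extremes were Mrps22 at -0.24 (-0.62 to 0.15) and Mrpl2 at 0.18 (-0.16 to 0.52). They moved with the libraries more widely than the cytosolic genes, from a median deviation of 0.17 in control replicate 1 to -0.18 in Nr3c1-Foxp3Cre replicate 1. In the latter library, in which the cytosolic genes had a median deviation of 0.028, 39 of the 79 had their lowest value.

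**Figure D5:**
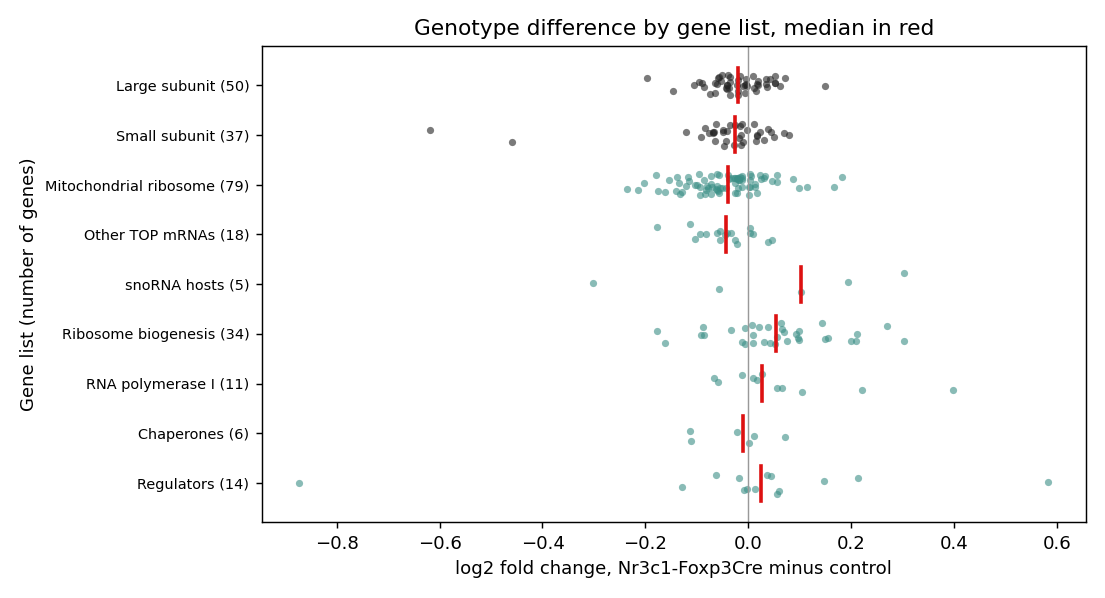
Log2 fold change, Nr3c1-Foxp3Cre minus control (x axis), of each gene in the 2 subunits and in 7 related lists (y axis), with the median of each list in red. The medians of the large (-0.020) and small (-0.026) subunit lie near 0, and the regulators Max and Tsc1 lie at the ends of the lists.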

How the data were processed

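RNA of 6 libraries was made into cDNA with the SMARTer ultra low input kit and Nextera XT, and sequenced by Illumina. According to the labels and methods, Cutadapt was used for trimming, STAR for alignment to mm10 and RSEM for estimating counts, after which the authors removed low genes and applied quantile normalization. The table deposited by the authors holds log2 CPM for 12153 genes; raw depth is unknown, so precision rests on the spread between 3 libraries per group. Values were fitted with limma 3.58.1 (R 4.3.3; genotype only, mean-variance trend in place of voom weights, which need counts), with Benjamini-Hochberg adjustment over all genes, two-sided p and 95% intervals. Paralog pairs were compared by an exact permutation test (scipy 1.17.1), adjusted over 5 pairs. The fit was tested on simulated data.

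Lengths and positions came from GENCODE (12130 IDs matched, 99.8%) and start windows from RefSeq GRCm38.p6. A member's level per kb is its geometric mean CPM over 6 libraries divided by transcript length. The members and all gene lists were chosen with earlier results of these data known. Named genes were members of known role, paralog pairs, the 3 highest and 3 lowest fold changes per subunit (mean of at least 5), the 2 highest and 2 lowest levels per subunit, and the extremes of each list (mean of at least 3); single results for some genes are not reported here. Alternatives comprised other moderation, weights, a filter, log2(CPM + 1), centering, cyclic loess, a replicate block, leaving out each library, and, chosen after seeing the data, canonical members only.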

Additional observations from a re-analysis of the deposited data

How the results depend on the processing

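No member passed an adjusted p of 0.05 (limma) in any of the 15 alternatives. With sample quality weights 1 large subunit gene (Rpl22l1) and 1 small subunit gene (Rps4l) had an unadjusted p under 0.05, and over fits leaving out 1 library the large subunit count ranged from 0 to 1 (Rpl7l1, without control replicate 1). The genes called over the whole table were 7, 0 without a trend, 19 with sample quality weights, 0 with the replicate number as a block and 0 to 8 leaving out 1 library. Leaving out 1 library, the median fold change ranged from -0.066 to 0.0065 in the large and from -0.066 to 0.0050 in the small subunit. It was -0.046 and -0.041 with sample quality weights, and -0.021 and -0.016 over canonical members only. Of 734 alternative values for 49 named genes, 700 kept their direction and 34 changed sign. With sample quality weights these were Rpl5 at 0.038, Rpl11 at -0.057, Rpl13a at -0.033, Rpl36al at -0.047, Rpl37rt at -0.18, Rack1 at 0.0075, Polr1e at 0.046 and Tsr2 at 0.016. Leaving out 1 library, the range was -0.066 to 0.026 for Fau, -0.032 to 0.13 for Heatr3, -0.14 to 0.070 for Polr1e, -0.12 to 0.028 for Rack1, -0.028 to 0.054 for Rpl13a, -0.082 to 0.068 for Rpl36al, -0.19 to 0.21 for Rpl37rt, -0.096 to 0.034 for Rpl41, -0.10 to 0.079 for Rpl5, -0.071 to 0.027 for Rplp0, -0.039 to 0.025 for Rplp1, -0.098 to 0.042 for Rplp2, -0.051 to 0.0096 for Rps14, -0.092 to 0.014 for Rps27a, -0.17 to 0.082 for Rps27l and -0.055 to 0.023 for Rps6. The cause was not tested. The deviations of same-numbered libraries correlated at -0.12, -0.33 and -0.025 across all genes and at -0.069, -0.084 and 0.47 across the members for numbers 1, 2 and 3, so the numbers were not taken to pair them; the replicate block left the medians at -0.020 and -0.026 and changed no call among the members. Raw depth, and with it counting error, is unknown, and differences of the 5 lowest members under about 1 log2 unit were not detectable.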
